A study of Mus musculus with 47 samples.

Results

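The 39 Wnt and Fgf ligand genes described here comprise 19 Wnt and 20 Fgf genes, chosen by family name from the 21281 autosomal protein-coding genes of the mm9 annotation. For each gene, the percentage of its span inside H3K27me3 regions (its coverage) and the number of H3K27ac and H3K4me1 peaks within 10 kb of its span were read from peak lists of control and E1/E2-KO livers. H3K27me3 is trimethylation of lysine 27 of histone H3, a repressive modification laid down by Polycomb repressive complex 2 through its catalytic subunits Ezh1 and Ezh2. H3K27ac marks active promoters and enhancers, and H3K4me1 marks enhancers whether active or not.

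All livers came from 7 week old mice. Control mice were floxed littermates given as Ezh2 f/f, and neither their Ezh1 genotype nor their Cre status is stated in the sources used here. E1/E2-KO mice were Ezh1-/- in every cell and carried Ezh2 f/f with Alb-Cre, a transgene whose albumin promoter is active in hepatocytes. The whole livers also held other cells, such as endothelial, stellate, Kupffer and bile duct cells. The paper presumes that Ezh2 is still active in non-parenchymal cells, and Ezh2 was not measured by cell type here. Males and females of both genotypes gave 4 groups. Each group had 4 livers per mark, except 3 E1/E2-KO female livers for H3K4me1, and the reads of a group were pooled by the authors before peaks were called. Every value below therefore comes from 1 list per group without replicate error, so that no difference had a test. In whole liver, a change in the number of cells of a type and a change per cell cannot be told apart.

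Depth of the pooled reads is not known for any list. The 4 H3K27me3 lists held 15603 to 19796 regions, the H3K4me1 lists 51417 to 69797 peaks, and the H3K27ac lists 49702 to 55930 peaks apart from control male liver, which had 29359. Of the 7 hepatocyte marker genes, none was covered to 50% by H3K27me3 in either control list and 6 had an H3K27ac peak within 10 kb in each of the 4 lists, the exception being Serpina1a with no peak of either active mark. In E1/E2-KO liver of both sexes 2 of the 7 gained coverage, Apoa1 and Hnf4a. Of the 8 endothelial markers, 4 lost at least 25 percentage points of coverage in both sexes (Pecam1, Cdh5, Stab1 and Stab2), and the median over the 8 was 100% (control) and 5.45% (E1/E2-KO) in males, and 63.0% (control) and 0% (E1/E2-KO) in females. Peak lists cannot show the deletion itself: Ezh2 was at 0% coverage in every list, and Ezh1 went from 1.63% to 53.1% in males and from 0% to 53.1% in females.

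Wnt proteins are lipid-modified secreted signals that bind Frizzled receptors with the Lrp5 and Lrp6 coreceptors and, in the canonical branch, stabilize β-catenin. In liver, Wnt2 and Wnt9b from endothelial cells near the central vein maintain the pericentral gene program of neighbouring hepatocytes. Most Fgf proteins are secreted ligands of the receptor tyrosine kinases Fgfr1 to Fgfr4. Fgf15, Fgf21 and Fgf23 act as hormones, and Fgf11, Fgf12 and Fgf14 remain inside the cell, where they bind voltage-gated sodium channels. Both families are developmental genes of the kind that Polycomb complexes keep silent in differentiated cells, often at promoters rich in CpG, the dinucleotide CG.

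The starts on which the findings turn are printed here in mm9 (NCBIM37) coordinates, each 5′ to 3′ on the strand of the gene, from 250 bp before to 50 bp after the annotated start, with CpG in capitals and all other bases in lower case. Fgf22 is shown because its start gained H3K27me3 in both sexes, Fgf12 and Fgf10 because coverage of the gene changed, Fgf21 because its start held both H3K27me3 and H3K27ac, and Wnt5b because its 3 starts differed in marks. The Fgf10 sequence is that of its protein-coding transcript, 44908 bp inside the annotated span.
Fgf22 (chr10:79217571-79217870, plus strand): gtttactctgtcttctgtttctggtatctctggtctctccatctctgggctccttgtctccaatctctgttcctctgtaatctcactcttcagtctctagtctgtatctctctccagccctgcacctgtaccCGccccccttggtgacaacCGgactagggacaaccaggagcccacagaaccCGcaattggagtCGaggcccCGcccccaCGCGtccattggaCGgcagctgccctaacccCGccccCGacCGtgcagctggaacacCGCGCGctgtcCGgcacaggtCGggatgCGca
Fgf12 (chr16:28445264-28445563, minus strand): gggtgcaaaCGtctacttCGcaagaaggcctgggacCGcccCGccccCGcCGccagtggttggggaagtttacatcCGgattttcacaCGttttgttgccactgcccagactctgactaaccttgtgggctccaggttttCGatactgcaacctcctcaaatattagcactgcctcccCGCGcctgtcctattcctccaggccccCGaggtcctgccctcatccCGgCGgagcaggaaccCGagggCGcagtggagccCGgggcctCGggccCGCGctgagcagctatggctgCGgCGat
Fgf10 coding start (chr13:119503256-119503555, plus strand): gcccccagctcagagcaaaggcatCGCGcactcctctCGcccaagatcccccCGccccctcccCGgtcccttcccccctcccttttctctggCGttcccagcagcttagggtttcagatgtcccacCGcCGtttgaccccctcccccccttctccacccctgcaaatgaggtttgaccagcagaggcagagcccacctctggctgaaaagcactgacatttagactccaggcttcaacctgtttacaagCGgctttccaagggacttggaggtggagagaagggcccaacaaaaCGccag
Fgf21 (chr7:52870811-52871110, minus strand): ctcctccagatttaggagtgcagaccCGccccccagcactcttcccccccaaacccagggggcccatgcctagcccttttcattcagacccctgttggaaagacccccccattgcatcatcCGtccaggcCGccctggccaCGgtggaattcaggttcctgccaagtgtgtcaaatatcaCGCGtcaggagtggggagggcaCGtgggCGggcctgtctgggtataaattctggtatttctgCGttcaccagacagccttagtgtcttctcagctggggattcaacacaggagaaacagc
Wnt5b outer start (chr6:119494287-119494586, minus strand): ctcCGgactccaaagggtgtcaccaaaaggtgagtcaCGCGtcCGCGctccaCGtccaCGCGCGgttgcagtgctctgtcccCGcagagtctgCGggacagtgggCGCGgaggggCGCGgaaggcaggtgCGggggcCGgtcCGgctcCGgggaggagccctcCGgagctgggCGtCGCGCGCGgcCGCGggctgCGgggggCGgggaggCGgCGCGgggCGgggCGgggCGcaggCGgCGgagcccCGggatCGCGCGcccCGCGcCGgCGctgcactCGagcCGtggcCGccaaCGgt
Wnt5b middle start (chr6:119417180-119417479, minus strand): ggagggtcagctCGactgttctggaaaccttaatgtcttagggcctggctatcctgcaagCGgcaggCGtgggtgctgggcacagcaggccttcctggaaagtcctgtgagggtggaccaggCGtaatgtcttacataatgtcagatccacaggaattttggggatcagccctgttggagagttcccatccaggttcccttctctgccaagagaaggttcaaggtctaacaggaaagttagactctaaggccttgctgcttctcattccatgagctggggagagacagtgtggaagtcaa
Wnt5b inner start (chr6:119399355-119399654, minus strand): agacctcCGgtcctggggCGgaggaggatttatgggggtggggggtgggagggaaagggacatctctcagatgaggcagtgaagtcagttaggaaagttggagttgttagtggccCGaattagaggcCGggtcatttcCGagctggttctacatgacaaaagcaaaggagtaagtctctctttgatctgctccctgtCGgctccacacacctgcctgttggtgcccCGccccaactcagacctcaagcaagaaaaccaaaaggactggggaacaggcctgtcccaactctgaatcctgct

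The motif counted was CG, which reads the same on both strands. The Wnt5b outer start held 49 in 300 bp, a number that 1.32% of all 21281 starts reach, whereas its middle and inner starts held 4 and 7. The Fgf12 start held 22, Fgf22 17, the Fgf10 coding start 10 and Fgf21 9. Over all members the median was 19, with 29 for Wnt and 14 for Fgf genes, against 12 over all genes, and 95.1% of all starts hold at least 1. In the 1 kb around the start, the ratio of observed to expected CpG was above 0.6 at 14 of 19 Wnt and 8 of 20 Fgf genes, and at 46.5% of all genes.

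H3K27me3 covered most of these genes in every list. At least 50% of the gene was inside regions for 34 of 39 members (control) and 35 (E1/E2-KO) in males, and 31 (control) and 36 (E1/E2-KO) in females, beside 31.1%, 33.9%, 27.9% and 27.1% of all genes. The Wnt genes stood at 18, 19, 16 and 19 of 19 in the same order of lists, and the Fgf genes at 16, 16, 15 and 17 of 20. Median coverage was 100% for both families in each list and 0% over all genes. Coverage of 0% was rare: Fgf22 in control male, Fgf22 and Fgf1 in control female, and no member in either E1/E2-KO list, beside 55.9%, 58.7%, 50.9% and 60.5% of all genes in those 4 lists. No member was at 0% throughout, as 43.2% of all genes were. In all 4 lists 22 members were covered to 100%, as were 12.8% of all genes, and 30 to at least 50%, as were 21% of all genes.

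**Figure D1:**
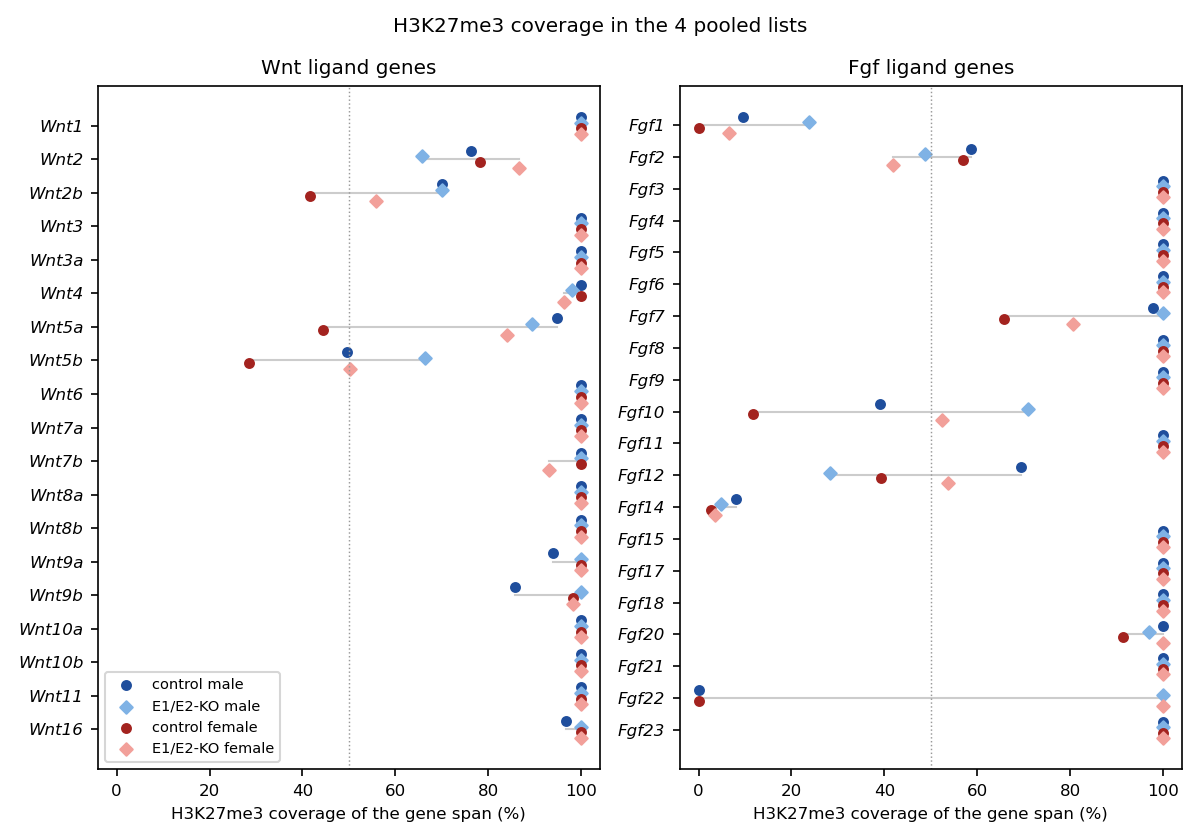
Percentage of each gene span inside H3K27me3 regions for the 19 Wnt genes (left) and 20 Fgf genes (right). Each symbol is the value of 1 pooled list (circles, control; diamonds, E1/E2-KO; blue shades, male; red shades, female), grey lines join the lowest and highest list, and the dotted line marks 50%; 22 genes sit at 100% in all 4 lists, and Fgf22 moved from 0% in both controls to 100% in both E1/E2-KO lists.

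The 22 fully covered members included 10 Wnt genes. These were Wnt1, a patterning signal of the midbrain, Wnt3 and Wnt3a, which act in the early embryo, Wnt6, Wnt7a, Wnt8a, Wnt8b, Wnt10a, Wnt10b and Wnt11. The 12 Fgf genes among them were Fgf3, Fgf4, Fgf5, Fgf6, Fgf8, Fgf9, Fgf11, Fgf15, Fgf17, Fgf18, Fgf21 and Fgf23. They thus held both embryonic ligands, such as Fgf4 of the blastocyst and Fgf8 of the limb and brain, and the 3 hormone genes: Fgf15 of the ileum, which restrains bile acid synthesis in liver, Fgf21, which hepatocytes themselves secrete in fasting, and Fgf23 of bone. A further 7 members had at least 80.7% in 3 or more of the lists and at least 65.8% in each: Wnt4, Wnt7b, Wnt9a, Wnt9b, Wnt16, Fgf7 and Fgf20. The remaining 10 members were Wnt2, Wnt2b, Wnt5a, Wnt5b, Fgf1, Fgf2, Fgf10, Fgf12, Fgf14 and Fgf22.

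At the start of the gene the mark was as frequent, with 38 (control) and 36 (E1/E2-KO) members in males and 34 (control) and 37 (E1/E2-KO) in females, beside 36.1%, 40.7%, 33.8% and 32.7% of all genes. All 19 Wnt genes and 14 of the 20 Fgf genes had their start inside a region in all 4 lists, beside 25.5% of all genes. The region over the start was wide, with a median of 70600 bp over the members marked there (control) and 85400 bp (E1/E2-KO) in males, and 74600 bp (control) and 57200 bp (E1/E2-KO) in females. Over all genes marked at the start the same medians were 53600, 55200, 42000 and 46000 bp. Members do not count as independent, because neighbouring genes shared a region in each list: Fgf3 with Fgf4 and Fgf15, Fgf6 with Fgf23, Wnt1 with Wnt10b, Wnt3 with Wnt9b, Wnt3a with Wnt9a, and Wnt6 with Wnt10a. The widest region over a member was in males, where the maximum was 268000 bp (control) and 350000 bp (E1/E2-KO).

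The lists give the extent of H3K27me3 regions and not the density of the mark inside them, so a loss of signal that left a region called would not change coverage. A gene was called as having lost or gained coverage from a difference of 25 percentage points between E1/E2-KO and control liver of the same sex. In males, 1 member fell (Fgf12) and 2 rose (Fgf22 and Fgf10), beside 6.3% and 10.3% of all genes. In females, none fell and 3 rose (Fgf22, Fgf10 and Wnt5a), beside 7.61% and 6.59% of all genes. Both sexes together had 2 members that rose and 0 that fell, where the shares of all genes were 3.48% and 2.9%. With only the widest 50% of the regions of each list, 2 members fell in each sex, and with a change from 50 points none fell in males and 1 rose in each sex.

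Most members had little room to rise and much to lose. This was looked at after the data were seen by keeping genes whose control coverage was 25% or more, among which coverage fell in 1 of 36 members in males and in 0 of 35 in females. Over all genes kept this way it fell in 17.6% of 7600 genes in males and 23.4% of 6914 in females. With control coverage of 75% or less, it rose in 2 of 8 members in males and 3 of 10 in females, beside 14.1% and 8.63% of all such genes.

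Fgf22 is a ligand of the Fgf7 subfamily best known for organizing synapses, and a short gene of 1940 bp at chr10:79217821-79219760 on the plus strand. Its coverage was 0% (control) and 100% (E1/E2-KO) in males, and 0% (control) and 100% (E1/E2-KO) in females. In both controls the gene lay in a gap between a pair of flanking regions, and in both E1/E2-KO lists a new, separate region stood in that gap. The new region was 11200 bp wide in males (chr10:79211201-79222400) and 9200 bp wide in females (chr10:79210801-79220000). These are narrow regions for the lists: with the widest 50% of the regions of each list, Fgf22 was at 0% in all 4, and with equal numbers of the widest regions in the females it was also at 0%. Of its neighbours, Polrmt was at 0% in every list and Fstl3 at 100% in every list, so neither changed with Fgf22.

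An H3K4me1 peak lay on the Fgf22 start in all 4 lists. It spanned -210 to 348 bp (control) and -170 to 391 bp (E1/E2-KO) in males, and -188 to 347 bp (control) and -209 to 331 bp (E1/E2-KO) in females, counted from the gene start. H3K4me1 was thus on this start both with and without H3K27me3. No H3K27ac peak of the Fgf22 neighbourhood lay at its own start. Those within 10 kb numbered 3, 2, 4 and 2 in the order of the lists above, and 3, 2, 3 and 2 of them stood within 1 kb of the start of another gene.

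**Figure D2:**
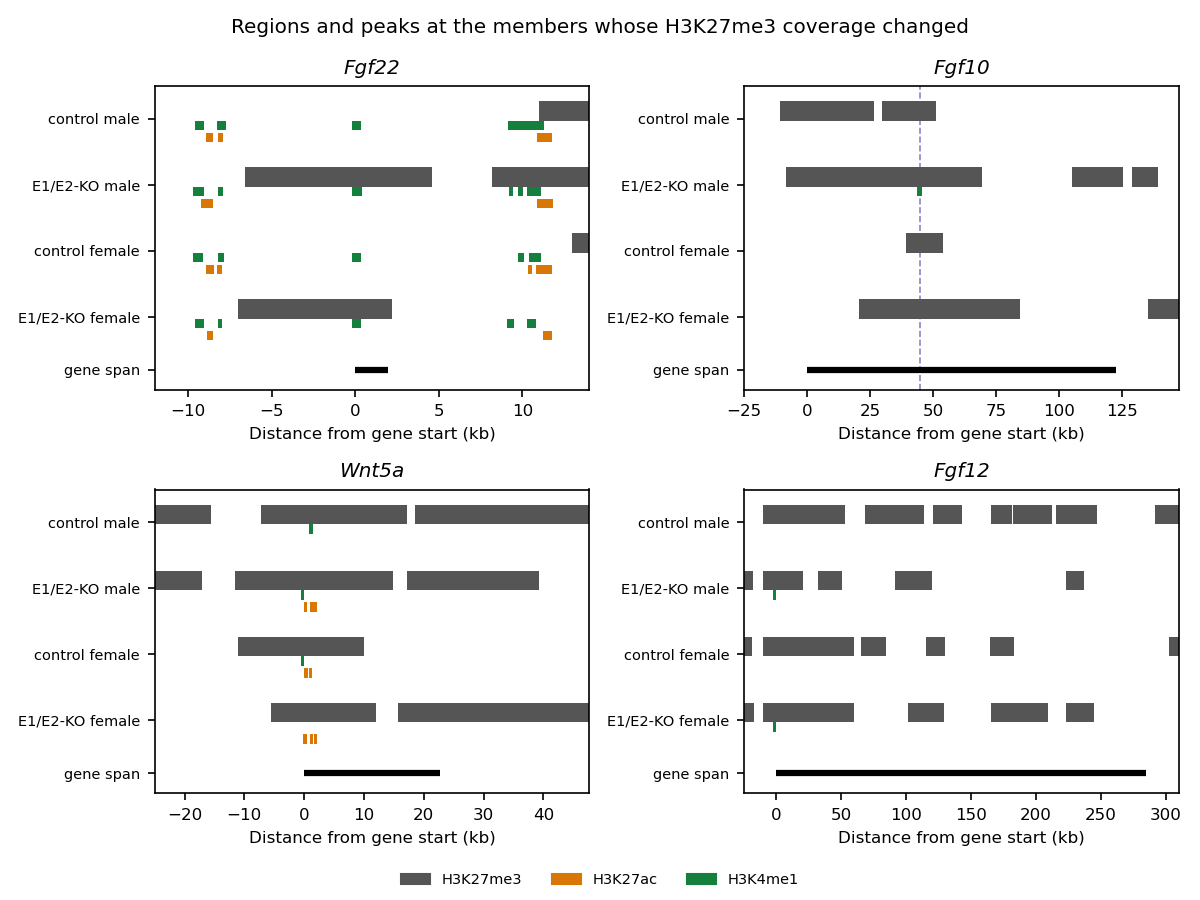
Regions and peaks around the 4 members whose coverage changed by at least 25 points, by distance from the gene start in kb (5′ end of the gene at 0, black bar the gene span), in the 4 pooled lists. Grey bars are H3K27me3 regions, green bars H3K4me1 peaks and orange bars H3K27ac peaks, widened where needed to be visible; the dashed line at Fgf10 is its protein-coding start, inside a region in every list, and at Fgf22 a grey bar over the gene appears only in the E1/E2-KO lists.

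Fgf10, a mesenchymal ligand for Fgfr2 needed for limb and lung budding, spans 122325 bp at chr13:119458598-119580922 on the plus strand. Its coverage was 39.1% (control) and 70.9% (E1/E2-KO) in males, and 11.8% (control) and 52.3% (E1/E2-KO) in females. The protein-coding start lay inside a region in all 4 lists, whereas the annotated gene start was inside one only in the male lists. The region at the coding start ran 21200 bp (control) and 77600 bp (E1/E2-KO) in males, and 14400 bp (control) and 64000 bp (E1/E2-KO) in females. Only 9.48% of the gene was inside regions in all 4 lists. Over the span of the protein-coding transcript alone, an alternative chosen after the data were seen, the rise was 46.1 points in males and 39.8 points in females. Fgf10 had no H3K27ac peak in any list, and its only H3K4me1 peaks were 2 at the coding start in E1/E2-KO male liver.

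Wnt5a, the main ligand of the non-canonical Wnt branch, lies at chr14:29317936-29340633 on the plus strand. It was covered to 94.7% (control) and 89.4% (E1/E2-KO) in males, and 44.3% (control) and 84.1% (E1/E2-KO) in females. The control female list stood apart from the other 3, so the rise of 39.8 points in females began from a low control value. All 4 lists covered the start, and the uncovered part in control female liver was the 3′ part of the gene, from 10064 bp after the start. Within 10 kb of the gene there were 0 H3K27ac peaks (control) and 3 (E1/E2-KO) in males, and 2 (control) and 3 (E1/E2-KO) in females. All of them overlapped a region of the same group. Within 1 kb of its starts they numbered 0, 1, 2 and 1 in the same order of lists. H3K4me1 peaks numbered 1, 1, 1 and 0.

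Fgf12, one of the intracellular Fgf genes and mainly expressed in brain and heart, spans 285108 bp at chr16:28160206-28445313 on the minus strand. Its coverage was 69.3% (control) and 28.4% (E1/E2-KO) in males, and 39.3% (control) and 53.8% (E1/E2-KO) in females. The change was thus a fall of 41.0 points in males and a rise of 14.5 points in females. A region covered the start in every list, 63200 bp wide (control) and 30800 bp (E1/E2-KO) in males, and 70800 bp (control) and 70400 bp (E1/E2-KO) in females. Inside the gene the regions were broken up differently in each list, and 13.8% of the span was common to all 4 while 76.2% lay in at least 1. No H3K27ac peak was found near Fgf12, and 1 H3K4me1 peak upstream of its start appeared in each E1/E2-KO list and in neither control.

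The other members with partial coverage changed by less than 25 points. Wnt2 had 76.3%, 65.8%, 78.2% and 86.6% in the order control male, E1/E2-KO male, control female, E1/E2-KO female. Wnt2b, a ligand expressed in mesenchyme, had 70.0%, 70.0%, 41.6% and 55.8%. Fgf2, basic fibroblast growth factor, had 58.8%, 48.7%, 56.9% and 41.8%. Fgf2 was hence lower in E1/E2-KO than in control liver in both sexes. Its coding starts 35827 and 36134 bp from the gene start were inside a region in all 4 lists. Only its innermost coding start, at 68236 bp, was inside a region in both controls and in neither E1/E2-KO list. Fgf1, acidic fibroblast growth factor, had 9.54%, 23.7%, 0% and 6.46%. Fgf14, the longest member at 699221 bp, had 8.17%, 4.92%, 2.68% and 3.6%.

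Between the sexes, coverage in control liver was higher by at least 25 points in males at 5 members and in females at none, beside 6.68% and 2.38% of all genes. The 5 were Wnt5a, Wnt2b, Fgf12, Fgf10 and Fgf7, an epithelial growth factor from mesenchyme that had 97.9% in males and 65.8% in females. In E1/E2-KO liver no member was higher in males by 25 points and 1 was higher in females (Fgf12), where the shares of all genes were 11.5% and 2.02%. The difference of Fgf10 between the sexes was 27.3 points in control and 18.6 points in E1/E2-KO liver. For Wnt5a these were 50.4 and 5.29 points.

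An H3K27ac peak lay within 10 kb of 15 members (control) and 23 (E1/E2-KO) in males, and 23 (control) and 23 (E1/E2-KO) in females, out of 39, beside 61.6%, 70.2%, 68.2% and 69.5% of all genes. Within 1 kb of a start of the gene itself, H3K27ac was at 7, 11, 10 and 13 of the 39 in the same order of lists, beside 48.1%, 55.4%, 54.3% and 55% of all genes, and at 7 in all 4 lists (47.4% of all genes): Wnt5b, Wnt9a, Fgf1, Fgf2, Fgf9, Fgf20 and Fgf21. In control male liver the only Fgf2 peak stood at its annotated gene start and not within 1 kb of a coding start. That peak was also within 1 kb of the start of another gene. The members' share was thus below that of all genes in each list at both distances, and the control male list is the shortest. Within 10 kb, the Wnt genes numbered 5, 12, 11 and 12 of 19, so the low control male count was mostly theirs, and the Fgf genes numbered 10, 11, 12 and 11 of 20. In 15 members all 4 lists held a peak (60.7% of all genes). In 13 members no list held one (27% of all genes): Wnt3, Wnt6, Wnt7a, Wnt7b, Wnt8a, Wnt8b, Fgf3, Fgf5, Fgf6, Fgf7, Fgf10, Fgf12 and Fgf23.

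**Figure D3:**
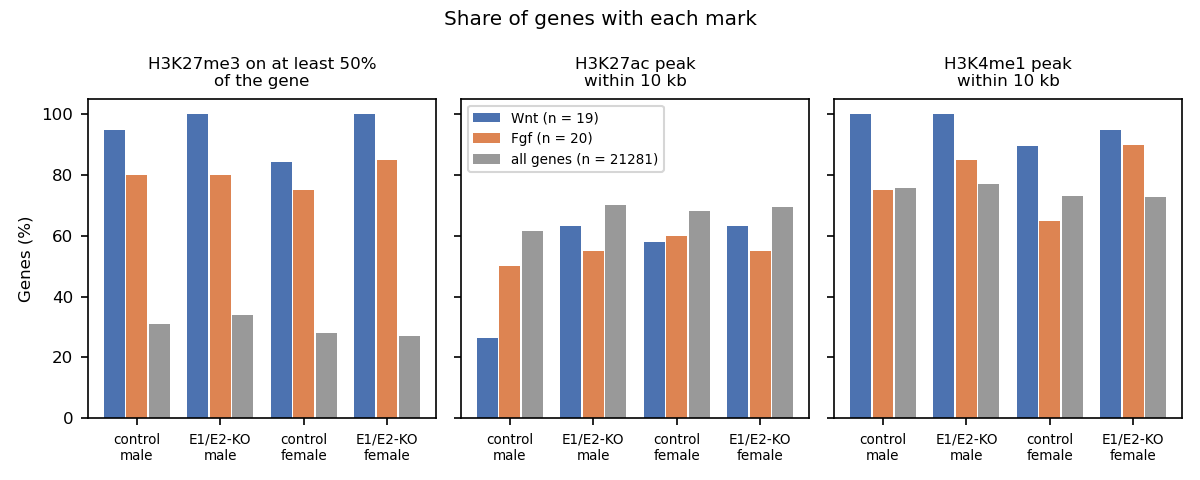
Share of the 19 Wnt genes, the 20 Fgf genes and all 21281 autosomal protein-coding genes (percent, axis from 0) with H3K27me3 on at least 50% of the gene (left), an H3K27ac peak within 10 kb (middle) and an H3K4me1 peak within 10 kb (right) in each pooled list. Both families stand far above all genes for H3K27me3, and the lowest H3K27ac bar is that of the Wnt genes in control male liver.

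In E1/E2-KO male liver 8 members had a first H3K27ac peak, that is 1 or more where control male liver had none, beside 8.95% of all genes. The 8 members were 7 Wnt genes (Wnt2, Wnt2b, Wnt3a, Wnt5a, Wnt10a, Wnt11 and Wnt16) and Fgf18, a ligand of cartilage growth. No member lost its last peak there, beside 0.324% of all genes. The control male list is the shortest of the 4, and 6 of the 8 members had a peak in control female liver too, all but Wnt3a and Fgf18. Over all genes with a first peak in E1/E2-KO male liver, that share was 64%. With the 29359 widest peaks of each list, 5 members had a first peak in males, beside 4.27% of all genes: Wnt2, Wnt2b, Wnt5a, Wnt10a and Wnt16.

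By number, H3K27ac peaks were more in E1/E2-KO than in control liver at 16 members and fewer at 1 (Fgf22) in males, beside 45.4% and 4.77% of all genes. In females, whose lists were of like length, they were more at 8 and fewer at 7, beside 23.5% and 19.9% of all genes. Wnt4, a ligand of kidney and female genital tract development, had its first 2 peaks in E1/E2-KO female liver, 1 of them upstream of its start at -617 to -313 bp and 1 beyond the end of the gene (3.06% of all genes had a first peak). Fgf15 lost its single peak, which stood beyond the end of the gene (1.73% of all genes lost their last peak). Wnt11, another non-canonical ligand, had 0, 5, 2 and 3 peaks in the order control male, E1/E2-KO male, control female, E1/E2-KO female, and Wnt10a 0, 3, 3 and 2.

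Acetylated sites near Wnt genes lay inside H3K27me3 regions in a larger share than all such sites. Median coverage of the Wnt genes was 100% in each list, so this share partly restates their coverage. No share expected from coverage was worked out. Counting each peak once, 3 of 9 H3K27ac peaks near Wnt genes overlapped a region of the same group (control) and 30 of 34 (E1/E2-KO) in males, and 19 of 25 (control) and 21 of 27 (E1/E2-KO) in females. For the Fgf genes the numbers were 11 of 24, 22 of 37, 12 of 40 and 13 of 39. Of all autosomal H3K27ac peaks, 15.7%, 34.1%, 17.8% and 21.1% did so. Because the livers hold several cell types and were pooled, the lists do not say whether both marks were on the same chromosomes.

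Both marks met at the start of a few members. The gene start was inside a region and within 1 kb of an H3K27ac peak for 5 members (control) and 8 (E1/E2-KO) in males, and 6 (control) and 11 (E1/E2-KO) in females, beside 7.95%, 17.9%, 10.9% and 11.9% of all genes. Only Wnt9a and Fgf21 did so in all 4 lists, as did 3.5% of all genes. Wnt9a, a signal of joint formation, had 1, 2, 1 and 2 H3K27ac peaks, all at its start. Wnt9b had 1 peak (control) and 4 (E1/E2-KO) in males, and 4 (control) and 3 (E1/E2-KO) in females, with 0, 2, 1 and 1 of these at its start. Wnt2 had 0, 1, 3 and 1 peaks, with 0, 1, 2 and 1 at the start. Both ligands of central vein endothelium hence kept H3K27me3 over their starts in all 4 lists, while the acetylated start was missing from the control male list alone. That H3K27ac list is the shortest, with 29359 peaks. The share of all genes with H3K27ac within 1 kb of an own start was lowest there too, at 48.1% beside 55.4%, 54.3% and 55% in the others. Of the 8 endothelial markers, 6, 8, 7 and 8 had an H3K27ac peak within 10 kb in the 4 lists, and their part in the result was not tested.

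Fgf21, at chr7:52869277-52870860 on the minus strand and 1584 bp long, was covered to 100% in every list and had H3K27ac at its start in every list. The number of H3K27ac peaks within 10 kb was 1 (control) and 3 (E1/E2-KO) in males, and 4 (control) and 2 (E1/E2-KO) in females. The region that held the gene was 97600 bp wide (control) and 111600 bp (E1/E2-KO) in males, and 90400 bp (control) and 18400 bp (E1/E2-KO) in females. It was thus narrower in E1/E2-KO female liver than in the other lists, although still over the whole gene. H3K4me1 peaks numbered 3, 3, 2 and 2.

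**Figure D4:**
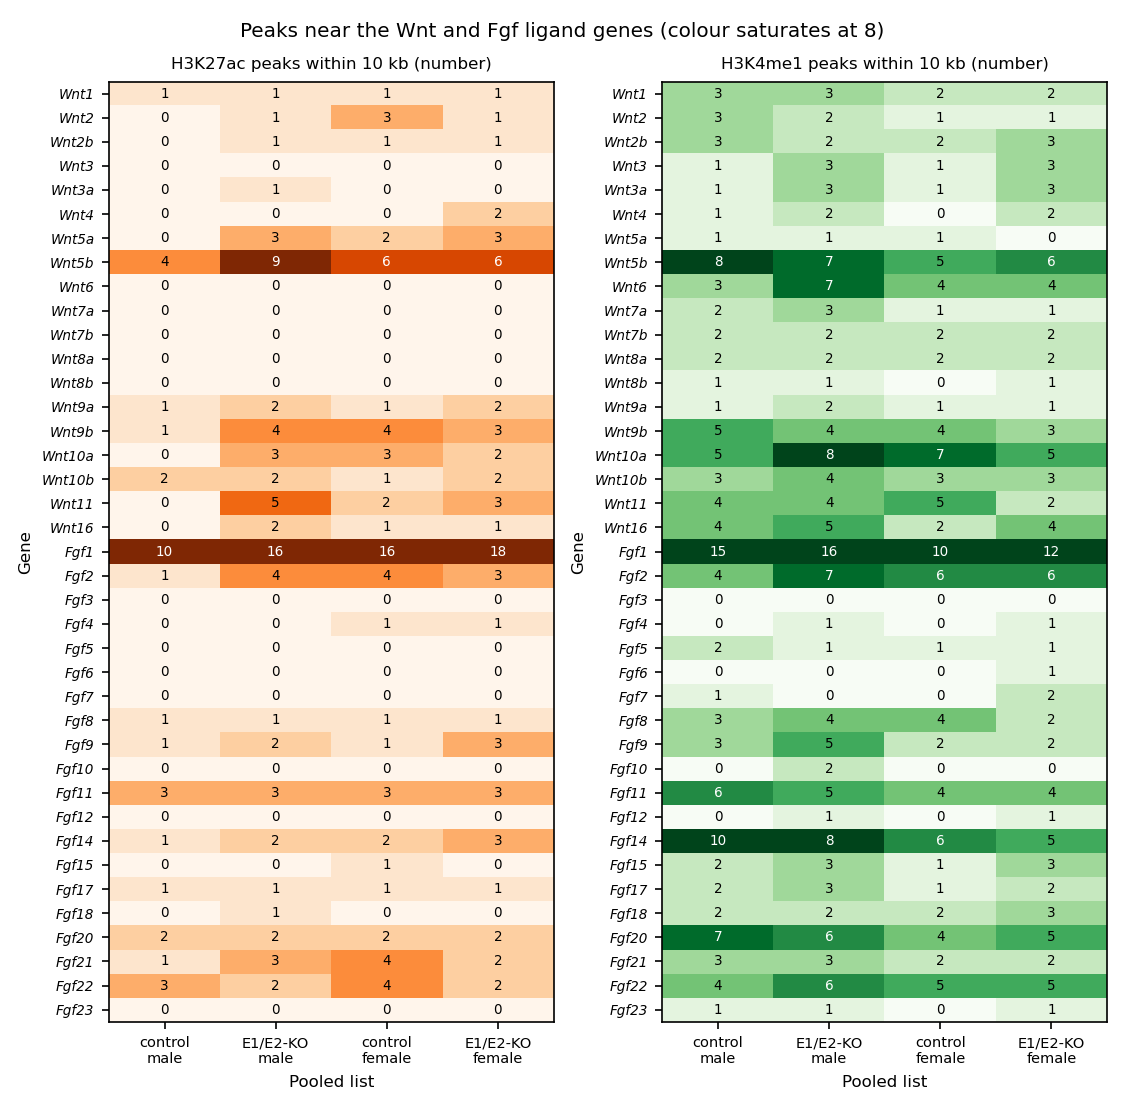
Number of H3K27ac peaks (left) and H3K4me1 peaks (right) within 10 kb of each gene, in the 4 pooled lists, with the number printed in each cell and the colour saturating at 8. Fgf1 has the most peaks of both marks, and the control male column for H3K27ac holds 0 for most Wnt genes.

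Fgf1 had the most peaks of any member, with 10, 16, 16 and 18 for H3K27ac and 15, 16, 10 and 12 for H3K4me1 in the order control male, E1/E2-KO male, control female, E1/E2-KO female. It was also among the least covered by H3K27me3, and its span is long at 90732 bp. Fgf2 had 1, 4, 4 and 3 H3K27ac peaks and Fgf14 had 1, 2, 2 and 3. Besides Fgf21, Fgf22, Wnt5b, Wnt9a and Wnt9b, the others with an H3K27ac peak in all 4 lists were Wnt1 with 1 in each, Wnt10b with 2, 2, 1 and 2, Fgf8 and Fgf17 with 1 in each, Fgf9 with 1, 2, 1 and 3, Fgf11 with 3 in each and Fgf20 with 2 in each. In Fgf8 and Fgf17 that peak stood at the start of another gene, so it need not belong to them. Some peaks of other members were also within 1 kb of the start of another gene. There were 1 in each list at Wnt10b, Fgf2 and Fgf20, 1, 1, 2 and 1 at Fgf11, and 2 in each list at Wnt5b. The only Wnt10b peak in control female liver was among them.

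Wnt5b, a non-canonical ligand related to Wnt5a, spans 111788 bp at chr6:119382549-119494336 on the minus strand and has 3 annotated protein-coding starts, whose sequences are printed with the starts. The outer start, rich in CpG, was inside a region in all 4 lists and had no H3K27ac peak within 1 kb in any. The middle start, 77107 bp downstream, and the inner start, 94932 bp downstream, each had an H3K27ac peak within 1 kb in all 4 lists, and both were outside H3K27me3 in both controls. In E1/E2-KO liver a new region stood over this inner part of the gene, 45200 bp wide in males and 34800 bp in females. It held both starts in males and the inner one alone in females. Coverage of the gene went from 49.7% to 66.4% in males and from 28.6% to 50.3% in females, under the 25 points of the call. H3K27ac peaks numbered 4, 9, 6 and 6, of which 0, 5, 0 and 2 overlapped a region of the same group.

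**Figure D5:**
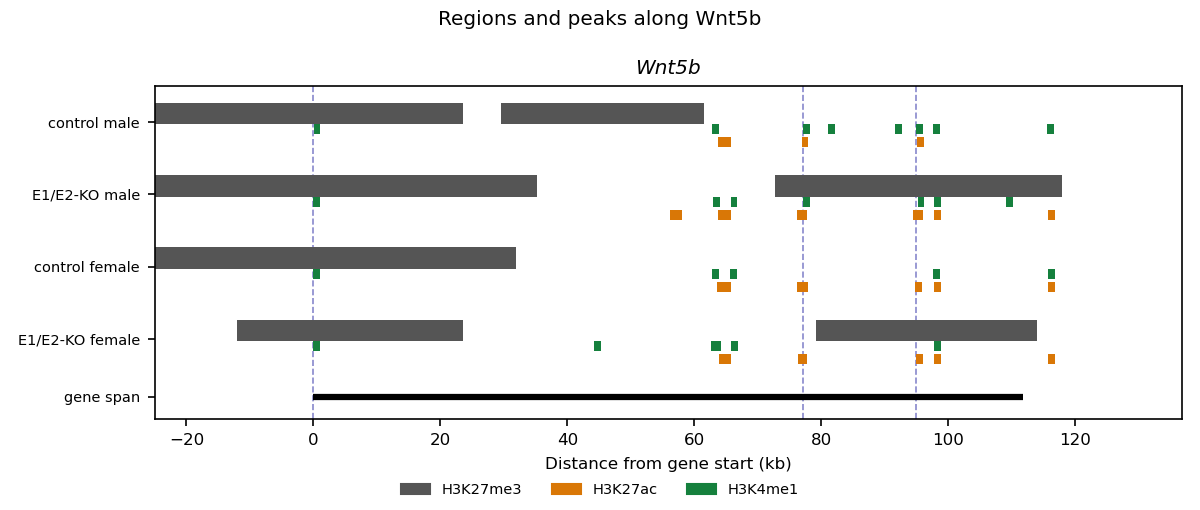
Regions and peaks along Wnt5b by distance from its outer start in kb, in the 4 pooled lists; grey bars are H3K27me3 regions, green bars H3K4me1 peaks, orange bars H3K27ac peaks, and dashed lines the 3 protein-coding starts. A grey bar over the inner start appears in both E1/E2-KO lists and over the middle start in E1/E2-KO male only, with neither in the controls, while orange bars at both starts are present in all 4 lists.

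H3K4me1 was found near most members. A peak lay within 10 kb of 34 members (control) and 36 (E1/E2-KO) in males, and 30 (control) and 36 (E1/E2-KO) in females, beside 75.7%, 77%, 73% and 72.8% of all genes, and 29 members had one in all 4 lists (68.4% of all genes). Within 1 kb of a start of the gene itself there was a peak at 24, 33, 23 and 26 members, beside 52.6%, 51.7%, 45.5% and 41.8% of all genes. E1/E2-KO male liver thus had the mark at the start of 33 of the 39. Fgf3, which acts in ear and limb development, had no H3K4me1 and no H3K27ac peak in any list.

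By number, H3K4me1 peaks were more in E1/E2-KO than in control liver at 19 members and fewer at 9 in males, beside 25.5% and 29.5% of all genes. In females they were more at 17 and fewer at 6, beside 21.1% and 31.4% of all genes, although the E1/E2-KO list was the shorter one in each sex. In E1/E2-KO male liver, Fgf4, Fgf10 and Fgf12 had a first H3K4me1 peak (3.03% of all genes) and Fgf7 lost its only one (1.66%). In E1/E2-KO female liver 7 members had a first peak (3.28% of all genes): Wnt4, Wnt8b, Fgf4, Fgf6, Fgf7, Fgf12 and Fgf23. There Wnt5a alone lost its last peak, beside 3.46% of all genes. Fgf4 and Fgf12 were the members with a first H3K4me1 peak in both sexes, each with 0, 1, 0 and 1. All of these members but Fgf10 had the gene start inside an H3K27me3 region in each of the 4 lists. None of the first H3K4me1 peaks was accompanied by a first H3K27ac peak in the same comparison except at Wnt4 in females.

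Coverage of the receptors, regulators and targets of these ligands differed by role. In the order control male, E1/E2-KO male, control female, E1/E2-KO female, median coverage was 100%, 100%, 79.8% and 90.9% for 16 secreted Wnt regulators, and 2.41%, 100%, 0% and 76.9% for 15 genes of Wnt reception. It was 26.3%, 73.2%, 21.4% and 56.2% for 7 genes of Fgf reception, the last being the value of Fgfr2, whose annotated span of 3009069 bp is doubtful. It was 37.5%, 61.4%, 9.9% and 50.7% for 10 Fgf feedback and target genes, and 20.9%, 19.3%, 9.52% and 9.21% for 18 Wnt pathway genes that act inside the cell or are its feedback and targets. Of 66 further genes of both pathways, coverage rose by at least 25 points in 13 in males and 11 in females, and fell in 3 in each sex, beside 10.3% and 6.59% of all genes that rose and 6.3% and 7.61% that fell. In both sexes 8 of the 66 rose (12.1%) and 2 fell (3.03%), beside 3.48% and 2.9% of all genes, so the share that fell was near that of all genes. Among those with control coverage of 75% or less, 13 of 40 rose in males and 11 of 44 in females. The ligand genes stood at 2 of 8 and 3 of 10, and all such genes at 14.1% and 8.63%. The largest mean rises were at receptors and their regulators, with Fgf22 as the only ligand of like size. Fzd7, a Frizzled receptor, went from 0% to 100% in both sexes, Fzd4, another, from 0% to 100% in males and to 96.2% in females. Rnf43, a ubiquitin ligase that removes Frizzled receptors from the cell surface, went from 0% to 100% in males and to 92.3% in females, and Klb, the coreceptor through which Fgf15 and Fgf21 act, from 0% to 60.6% and to 93.2%. Rspo3, a Wnt enhancer made by central vein endothelium, fell from 90.8% to 29.6% in males and from 59.4% to 26.2% in females, and Wls, which carries Wnt proteins to the cell surface, from 41.3% to 7.6% and from 31.3% to 3.43%. Of the 8 endothelial markers, Pecam1, Cdh5, Stab1 and Stab2 fell too in both sexes. Kdr and Clec4g stayed at 100% and Lyve1 at 0% in every list. Tek went from 34.2% to 10.9% in males and was at 0% in both female lists. The stellate marker Rgs5 fell from 100% to 55.5% in males and to 36.6% in females. The median over the 6 stellate markers was 100% in every list. The part of these cell types in the fall of Rspo3 was not tested.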

How the data were processed

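Histone ChIP-seq of 47 liver samples (H3K27me3, H3K4me1, H3K27ac) was deposited as 12 lists, 1 per group and mark. The deposited values are the start and end coordinates of regions or peaks, with no score. The authors aligned 50 nt reads to mm9 with Bowtie2 2.3.2, pooled the livers of a group, and called H3K27me3 regions with SICER 1.1 (window 400 bp, gap 2400 bp) and the other peaks with MACS2 2.1.1. How deeply each pool was sequenced is not given in the sources used here, and list length and merging of windows can move every value.

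SICER end positions were extended by 1 base. Coverage was the percentage of the GENCODE M1 gene span inside regions. Peaks counted when at least 1 bp lay within 10000 bp of the span. Covered meant at least 50%, and changed at least 25 percentage points. Intervals were compared with Python 3.11.15 and NumPy 2.4.6 and drawn with matplotlib 3.10.9. On simulated data with 1000 genes, all 200 removed regions were recovered as falls. Sequences were read from the mm9 (NCBIM37) genome.

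With 1 list per group there was no test. All members are named, and of the other pathway genes at most the 4 largest rises and the falls shared by both sexes. The members and lists were chosen with earlier results of these data known. Other thresholds, distances, list lengths and gene spans were tried as alternatives.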

Additional observations from a re-analysis of the deposited data

Results flagged for a closer look

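At 3 members the E1/E2-KO and control lists differed in opposite directions in males and females, by at least 10 percentage points of coverage or 2 peaks. The difference between the sexes was not tested, since each group had 1 pooled list. H3K27me3 coverage of Fgf12 changed by -41.0 points in males and 14.5 points in females. H3K4me1 peaks within 10 kb of Wnt10a changed by 3 in males, from 5 to 8, and by -2 in females, from 7 to 5. H3K27ac peaks within 10 kb of Fgf21 changed by 2 in males, from 1 to 3, and by -2 in females, from 4 to 2.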

How the results depend on the processing

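Of 168 counts under alternatives, 130 stayed within 1.5 times the reported count, 38 did not, and the cause was not tested. With a change from 50 points, coverage fell in 0 members in males and rose in 1 in each sex, and of the 66 pathway genes it fell in 1 and rose in 7 in males and fell in 0 and rose in 6 in females. With the widest 50% of the regions, 2 members fell in each sex. With equal numbers of the widest regions, 1 pathway gene fell in females. With peaks within 50 kb, 28 members had H3K27ac in control male liver, 5 had a first H3K27ac peak in males and 0 in females, 0 lost the last in females, and 4 had a first H3K4me1 peak in females. Within 1 kb of the gene start, H3K27ac was at 5, 10, 9 and 12 members (control male, E1/E2-KO male, control female, E1/E2-KO female), 5 had a first peak in males and 3 in females, and 0 lost the last in females. For H3K4me1, 8 had a first peak in males, and 2 in males and 4 in females lost the last. Within the gene span only, 12 (control) and 15 (E1/E2-KO) members had H3K27ac in females, where 3 had a first and 0 lost the last such peak, and for H3K4me1 in males 5 had a first and 2 lost the last. With equal numbers of the widest peaks, 5 had a first H3K27ac peak in males, 2 lost the last in females, and 0 lost the last H3K4me1 peak in males. With the widest 50% of the peaks, 3 had a first H3K27ac peak in females and 7 a first H3K4me1 peak in males. With peaks at the start of another gene left out, chosen after the data were seen, 2 had a first and 2 lost the last H3K27ac peak in females. No count moved past 1.5 times with coverage from 25% or 75%, spans extended by 3 kb, regions within 3 kb merged or 1 kb windows at the start, nor, among alternatives chosen after the data were seen, with coding spans or outermost coding starts. No paired analysis was possible because the livers of a group were pooled before calling, and no replicate could be left out. Depth is unknown, so a missing peak is not evidence that the mark was absent.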
